A study of Mus musculus with 15 samples.

Results

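A set of 9 extracellular matrix genes was followed through 5 sorted mouse cell populations. They encode the matrix metalloproteinases Mmp2, Mmp3 and Mmp14, their inhibitors Timp1, Timp2 and Timp3, the proteoglycan-cleaving proteases Adamts1 and Adamts5, and the membrane serine protease Fap. The genes were chosen as a list of symbols, and all 9 of 9 were found among the 10222 gene symbols of the expression table. Cells came from C57BL/6 mice heterozygous for an IL33-citrine reporter, in which one Il33 allele reports its own expression by fluorescence, and the labels name no treatment. Stromal cells negative for lineage markers, CD45, Epcam, CD31 and CD24 and positive for PDGFRα, CD34, Sca1 and Podoplanin (MSC) were sorted as citrine+ or citrine- from white adipose tissue, named mesenteric in the labels (Il33+ and Il33- WAT-MSC), and as citrine+ from lung (Il33+ lung MSC). The other populations were CD45- too: endothelial cells of WAT, taken by CD31, for which the labels name no depot, and epithelial cells of lung, taken by Epcam. Each population had 3 libraries from independent experiments, 15 in all, and WAT was digested with collagenase I and DNase I at 37°C before the sort. The labels do not say how many mice went into a library.

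Fibroblast-like stromal cells are the main source of matrix and of the enzymes that remodel it. Metalloproteinases are made as inactive precursors and work outside the cell: Mmp14 sits in the cell membrane and, in a complex with Timp2, activates secreted Mmp2, which cleaves denatured and basement membrane collagen. Mmp3 (stromelysin) cleaves proteoglycans and other matrix proteins and can activate other metalloproteinases. The TIMPs are secreted proteins that block the active site, and Timp3 differs from the others in binding to the matrix and in inhibiting ADAMTS enzymes well. Adamts1 and Adamts5 cleave versican and aggrecan, and Fap, a marker of activated fibroblasts, cleaves after proline. In adipose tissue this system acts as fat expands and as vessels grow.

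The sequences upstream of Mmp3, Timp1 and Timp3 are shown because these were the 3 members that passed the test between Il33+ WAT-MSC and Il33+ lung MSC. Each run holds the 120 bases before the RefSeq gene start in GRCm38.p6, written 5′ to 3′ on the strand of the gene, and capitals mark matches to TGAGTCA (the AP-1 element), TATAAA (found in many core promoters) or GGGCGG (the Sp1 element) on either strand.
Mmp3, chr9:7445702-7445821, plus strand: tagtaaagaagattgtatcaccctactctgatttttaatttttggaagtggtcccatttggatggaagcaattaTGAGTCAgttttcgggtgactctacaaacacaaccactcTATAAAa
Timp1, chrX:20870046-20870165, plus strand: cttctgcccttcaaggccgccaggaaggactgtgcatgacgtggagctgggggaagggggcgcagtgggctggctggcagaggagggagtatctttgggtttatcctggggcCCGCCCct
Timp3, chr10:86300292-86300411, plus strand: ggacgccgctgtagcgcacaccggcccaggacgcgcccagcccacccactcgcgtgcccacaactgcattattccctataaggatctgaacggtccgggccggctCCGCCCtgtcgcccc
Among the 6 members with an entry in the promoter table (Mmp3, Mmp14, Timp1, Timp2, Timp3 and Adamts1), searched over 250 bases before the start, TGAGTCA was matched in Mmp3, TATAAA in Mmp3 and Adamts1, and GGGCGG in the 5 genes other than Mmp3. Of 32536 mouse promoters searched the same way, 4.45% held TGAGTCA, 12.3% held TATAAA and 33% held GGGCGG. A match is a description of letters and no evidence of binding.

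The members lie on 8 chromosomes. Adamts1 (chr16:85793827-85803113) and Adamts5 (chr16:85858157-85901125) are neighbours, 55043 bases apart, with 1 annotated gene between them. Mmp2 lies at chr8:92827290-92853421, Mmp3 at chr9:7445822-7455975, Mmp14 at chr14:54431598-54442456, Timp2 at chr11:118301061-118355411 and Fap at chr2:62500936-62575509. Timp1 (chrX:20870166-20874737) lies inside Syn1, and Timp3 (chr10:86300412-86349505) inside Syn3. Whether reads were counted by strand is not given in the sources used here, so reads of such gene pairs may have been shared. Syn1 was listed at 0.68 to 12.3 RPKM over the 15 libraries.

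The unit, RPKM, scales the reads of a transcript to its length and to the mapped reads of the library, and it allows levels of different genes to be compared per length. Libraries held 42711843 to 60773158 alignments. The sorted genes followed the labels: Il33 was at 38.7 to 78.5 RPKM in Il33+ WAT-MSC and at 4.31 to 6.76 in Il33- WAT-MSC, and Epcam was above 1 RPKM in lung epithelial libraries only, at 25.9 to 39.8. Pecam1 was at 145 to 198 RPKM in WAT endothelial libraries and at no more than 2.99 in WAT-MSC. In the lung it was at 6.04 to 12.9 RPKM in Il33+ MSC and at 12.4 to 19.1 in epithelial libraries. The endothelial libraries also held stromal transcripts, with Pdgfra at 24.4 to 35.7 RPKM, against 53.3 to 89.8 in Il33+ WAT-MSC. Endothelial replicate 1 had 11.02% of genes at 0, against 3.63 and 2.48% in the other endothelial libraries, and the lowest summed RPKM of the 15. In the lung epithelial libraries Scgb1a1, the secretoglobin of club cells, took 57.7 to 62.9% of the summed RPKM. Because RPKM is per length, this is not its share of the reads, and how far it lowers other genes was not measured. Scgb1a1 did not keep to its label: it was at 56.1 to 134 RPKM over the WAT libraries and at 72.9 to 493 in lung MSC. The source of these reads was not tested. In sorted bulk samples fewer cells of a type and less RNA per cell cannot be told apart.

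Mmp2 was an abundant transcript of all stromal populations. It was at 169, 167 and 183 RPKM in Il33+ WAT-MSC (mean 173 ± 8.78, SD, n = 3), where it ranked 130 among 10222 genes. It was at 155, 266 and 264 RPKM in Il33- WAT-MSC and at 223, 275 and 202 RPKM in Il33+ lung MSC. The Il33- libraries spread over the range of both other stromal populations, while all lung MSC libraries lay above all Il33+ WAT-MSC libraries. WAT endothelial libraries had 52.2, 57.9 and 70.4 RPKM and lung epithelial libraries 5.89 to 9.74, both below all stromal libraries.

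Mmp14, the membrane-bound activator of Mmp2, had the same order of magnitude in the 3 stromal populations. Its mean was 65.5 ± 4.68 RPKM in Il33+ WAT-MSC, 85.3 ± 8.76 in Il33- WAT-MSC and 65.2 ± 10.0 in Il33+ lung MSC (SD, n = 3 each). Il33- WAT-MSC libraries, at 75.2 to 90.5 RPKM, lay above Il33+ WAT-MSC libraries, at 61.7 to 70.7, and lung MSC overlapped with the latter. Endothelial libraries had 25.4 to 31.5 RPKM and epithelial libraries 3.11 to 5.11. Over the 15 libraries Mmp2 and Mmp14 moved together, with a Pearson r of 0.99 on log2(RPKM + 1), a description over libraries that share their population.

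Mmp3 had the most uneven distribution of the metalloproteinases. Il33+ lung MSC had 103, 113 and 109 RPKM (mean 109 ± 4.89) and Il33+ WAT-MSC had 24.3, 15 and 23.9 RPKM (21.1 ± 5.23). Il33- WAT-MSC had 0.49, 3.16 and 1.63 RPKM (1.76 ± 1.34, SD, n = 3). These 3 populations did not overlap with each other, and the step from Il33- to Il33+ WAT-MSC was 12-fold by the means. Endothelial libraries had 3.62, 3.78 and 14.5 RPKM, so that replicate 3 lay apart from the others, and epithelial libraries, at 0.11, 0.48 and 5.13, overlapped with both endothelial and Il33- libraries.

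Timp2 was the leading inhibitor transcript of WAT-MSC. It was at 791, 805 and 746 RPKM in Il33+ WAT-MSC, where it ranked 23 among all genes, and at 492, 613 and 593 RPKM in Il33- WAT-MSC. Il33+ lung MSC had 1002, 951 and 754 RPKM, which overlapped with Il33+ WAT-MSC. WAT endothelial libraries had 361 to 419 RPKM and lung epithelial libraries 37.8 to 40.8.

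Timp3, the matrix-bound inhibitor, had its highest level in lung stroma. Il33+ lung MSC had 1180, 1354 and 1037 RPKM (mean 1190.4 ± 159, SD, n = 3), where it ranked 17 among all genes. WAT endothelial libraries came next at 464, 265 and 273 RPKM, above Il33+ WAT-MSC at 212, 184 and 159 RPKM and Il33- WAT-MSC at 86.7, 132 and 119 RPKM. Lung epithelial libraries had 44.7, 64.4 and 78 RPKM. No neighbours in this order overlapped, and Timp3 was the one member whose endothelial libraries all exceeded the libraries of both WAT-MSC populations.

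Timp1, an inducible inhibitor, was the least abundant of the 3 TIMPs in every population. It was at 19.7, 46.1 and 35.6 RPKM in Il33+ WAT-MSC and at 3.41, 15.4 and 7.66 RPKM in Il33- WAT-MSC. Il33+ lung MSC had 60.9, 95.0 and 177 RPKM and WAT endothelial libraries 2.06, 17.8 and 17.3. The WAT-MSC populations and lung MSC did not overlap, while endothelial and Il33- libraries did. Timp1 was the only member with more than 1 listed transcript. Of its 3, the one most abundant overall held 53.0 to 76.0% of the RPKM in Il33+ WAT-MSC, 61.6 to 76.4% in lung MSC and 2.1, 64.6 and 39.6% in Il33- WAT-MSC. With that transcript alone the difference between Il33+ and Il33- WAT-MSC was 2.61 on the log2 scale (adjusted p = 0.114, limma).

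Adamts1 was nearly even among stromal and endothelial cells. It was at 156, 155 and 133 RPKM in Il33+ WAT-MSC, 111, 144 and 144 in Il33- WAT-MSC, 84.6, 112 and 143 in Il33+ lung MSC and 153, 130 and 130 in WAT endothelial cells. These 4 populations overlapped with their neighbours in order, and only lung epithelial cells stood apart, at 7.24 to 10.3 RPKM. Adamts5 had a stromal pattern instead, with means of 56.9 ± 8.34 RPKM in Il33- WAT-MSC, 48.5 ± 10.5 in Il33+ WAT-MSC, 32.3 ± 9.15 in Il33+ lung MSC, 16.9 ± 1.02 in endothelial and 3.99 ± 0.914 in epithelial cells (SD, n = 3 each). The stromal populations overlapped in steps for Adamts5, and all of them lay above the endothelial libraries.

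Fap was a low transcript in every population. It was at 11.2, 11.4 and 9.37 RPKM in Il33- WAT-MSC, at 5.28, 5.30 and 3.0 in Il33+ WAT-MSC and at 2.22, 2.42 and 2.60 in Il33+ lung MSC. Endothelial libraries had 0.64, 0.59 and 1.55 RPKM and epithelial libraries 0.05, 0.01 and 0.30. No neighbours in this order overlapped, and the order of the stromal populations was the reverse of that of Mmp3 and Timp1.

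**Figure D1:**
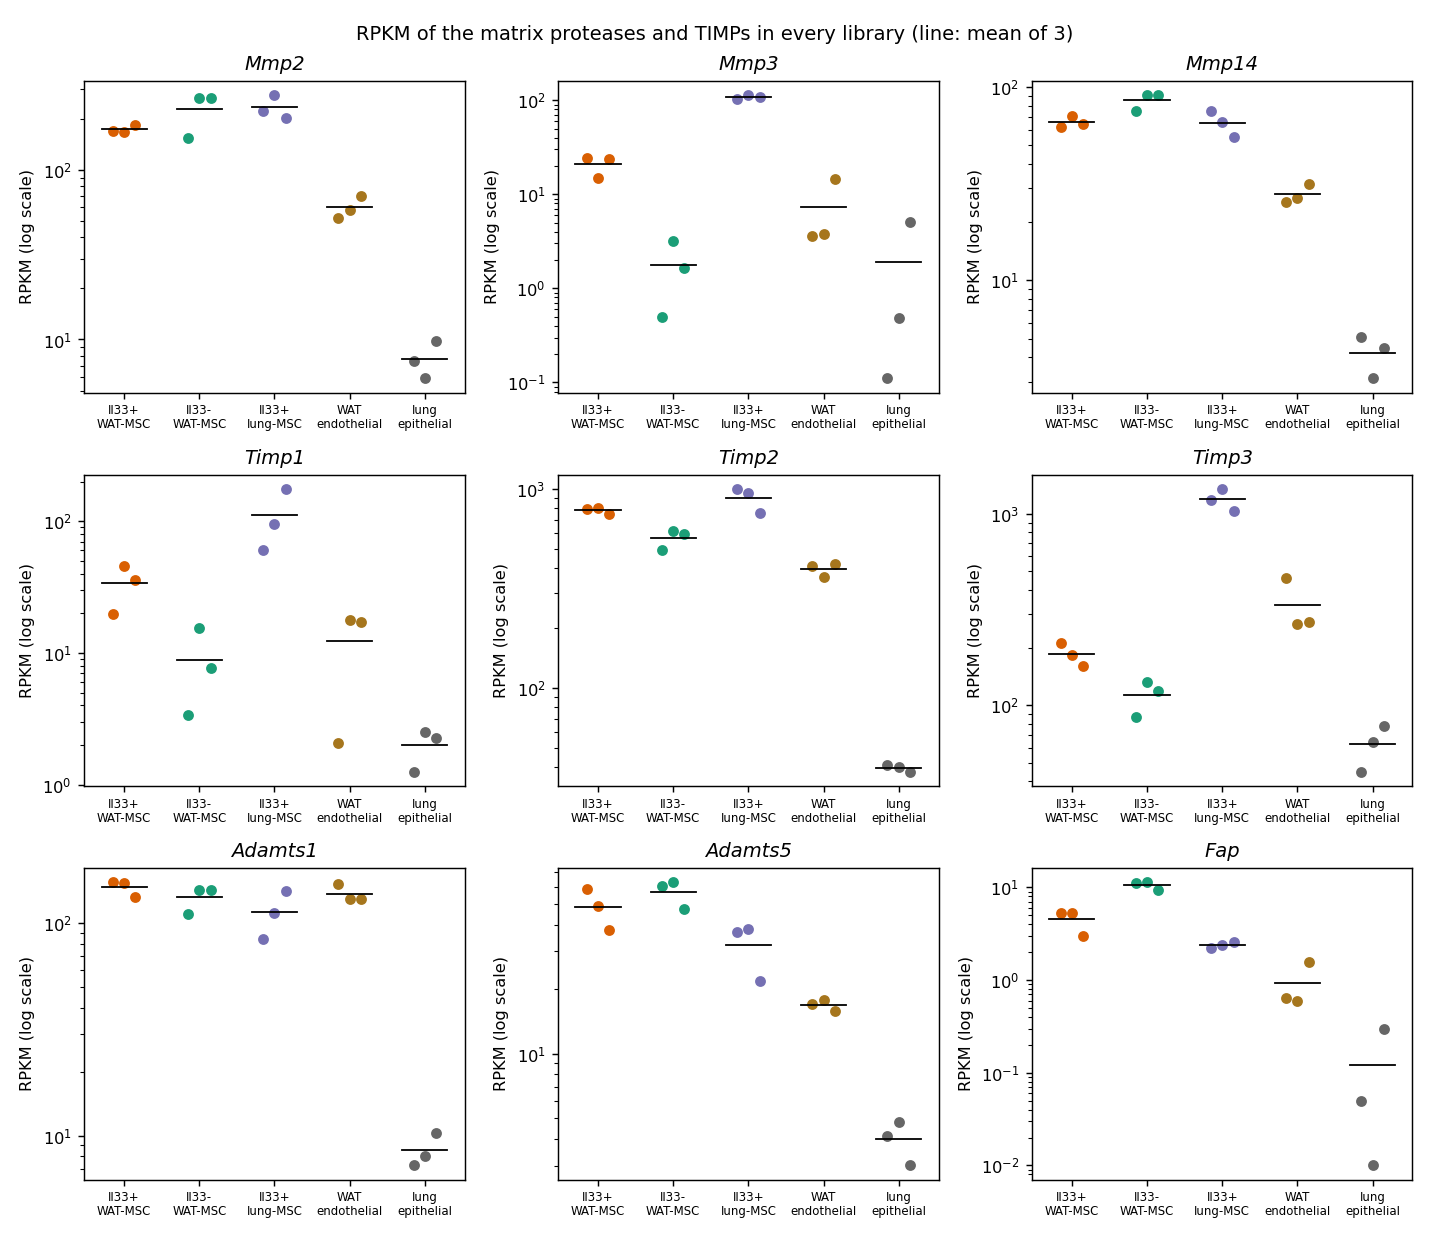
RPKM on a log axis of the 9 genes in each of the 15 libraries, by population, with a line at the mean of 3. Mmp3 spans 0.11 RPKM in a lung epithelial library to 113 in lung MSC, and its lowest Il33- WAT-MSC library is at 0.49. Timp3 is highest in lung MSC at a mean of 1190.4, and Adamts1 stays between 84.6 and 156 RPKM outside the lung epithelium.

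The members followed 2 kinds of pattern over the 15 libraries, given here as correlations of log2(RPKM + 1) without a test, since libraries of a population share their cells. Mmp2, Mmp14, Timp2, Adamts5 and Adamts1 correlated with each other at 0.86 to 0.99, and each had its lowest mean in lung epithelial cells. Mmp3 correlated with Timp1 at 0.90 and with Timp3 at 0.86, but with Adamts5 at 0.36 and with Fap at 0.12. Fap correlated with Adamts5 at 0.90 and with Timp3 at 0.07. Among 9981 genes, those close to Mmp3 included Pi16 (r = 0.963) and Loxl4 (0.946), a collagen cross-linking oxidase. The closest to Timp3 were Ctgf (0.948), Cerk (0.94) and Cyr61 (0.938), where Ctgf and Cyr61 are matricellular proteins of the CCN family. The closest to Timp1 were Fgf23 (0.965), Dpp7 (0.945) and Olfml3 (0.938).

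Among the other members, the genes most like Mmp2 were Mmp14 (0.989), Rora (0.989) and the cathepsin Ctsl (0.984). Those most like Mmp14 were Ecm2 (0.991), Zeb2 (0.99) and Mmp2. Those most like Timp2 were Gpc6 (0.993), Scara5 (0.992) and Scara3 (0.991). The closest to Adamts1 were Vim (0.988), which encodes the intermediate filament of mesenchymal cells, Dpysl3 (0.984) and Adamts4 (0.982), another versican-cleaving protease. Adamts5 was closest to Klhl13 (0.982), Antxr2 (0.981) and Abca9 (0.977), and Fap to Ttyh2 (0.948), the collagen VI chain Col6a6 (0.946) and the syndecan Sdc2 (0.945).

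Because RPKM is per length, the inhibitor and protease transcripts could be summed within a library. The sum of Timp1, Timp2 and Timp3 exceeded the sum of Mmp2, Mmp3 and Mmp14 in all 15 libraries. The ratio of the sums was 4.01, 4.10 and 3.47 in Il33+ WAT-MSC, 2.52, 2.12 and 2.02 in Il33- WAT-MSC and 5.59, 5.28 and 5.37 in Il33+ lung MSC. The 3 stromal populations did not overlap in this ratio, with Il33- WAT-MSC lowest. In endothelial cells it was 10.8, 7.27 and 6.09, highest in replicate 1, the library with the most genes at 0, and in epithelial cells 6.82, 11.3 and 6.11, above every stromal library. The MMP sum leaves out other MMPs of the table. In lung epithelial cells Mmp15 alone had a mean of 15.1 RPKM, beside a mean MMP sum of 13.8. In Il33+ WAT-MSC Mmp19 had a mean of 43.4 RPKM, beside a mean MMP sum of 260. The order of the populations thus holds for these 3 MMPs only, and a ratio with all MMPs was not computed. The ratio describes transcripts, gives no measure of enzyme activity and was not tested.

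**Figure D2:**
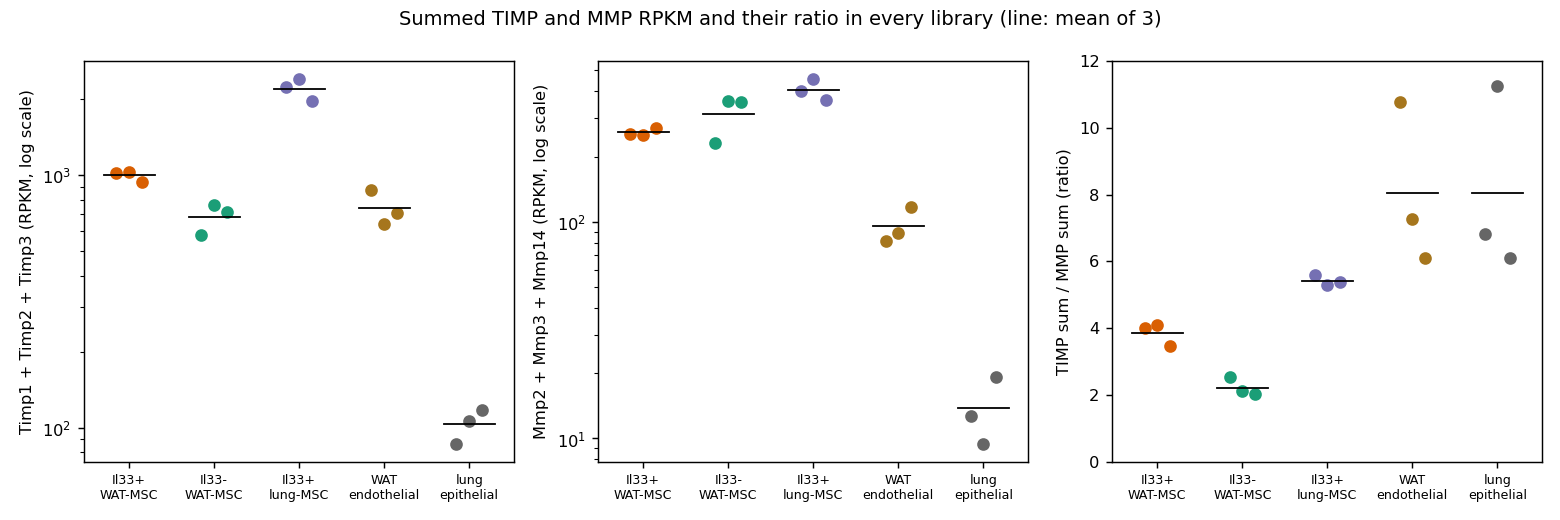
Summed RPKM of 3 TIMPs and of 3 MMPs on log axes, and their ratio on a linear axis, in each library, with a line at the mean of 3. The ratio is 2.02 to 2.52 in Il33- WAT-MSC, 3.47 to 4.10 in Il33+ WAT-MSC and 5.28 to 5.59 in lung MSC.

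The make-up of the sums differed by tissue as well as by cell type. Timp2 made up 77.3 to 79.3% of the TIMP sum in Il33+ WAT-MSC and 80.6 to 84.5% in Il33- WAT-MSC, with Timp3 at 14.9 to 20.7% over both. In Il33+ lung MSC Timp3 led, at 52.6 to 56.4%, and Timp2 held 38.3 to 44.7%. The lung epithelium had a similar make-up at a far lower level, with Timp3 at 51.6 to 66.1%, and WAT endothelial cells had Timp3 at 53.1, 41.1 and 38.4%. Within the sum of these 3 MMPs, Mmp2 was the largest component in every library, at 50.4 to 74.1%. Mmp15, outside the sum, had a higher mean than Mmp2 in lung epithelial cells, at 15.1 against 7.71 RPKM. Mmp3 held 24.9 to 29.9% in lung MSC, 6.0 to 9.5% in Il33+ WAT-MSC and 0.2 to 0.9% in Il33- WAT-MSC. Its share was 0.9, 5.1 and 26.6% in lung epithelial and 4.5, 4.3 and 12.5% in WAT endothelial replicates 1, 2 and 3.

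**Figure D3:**
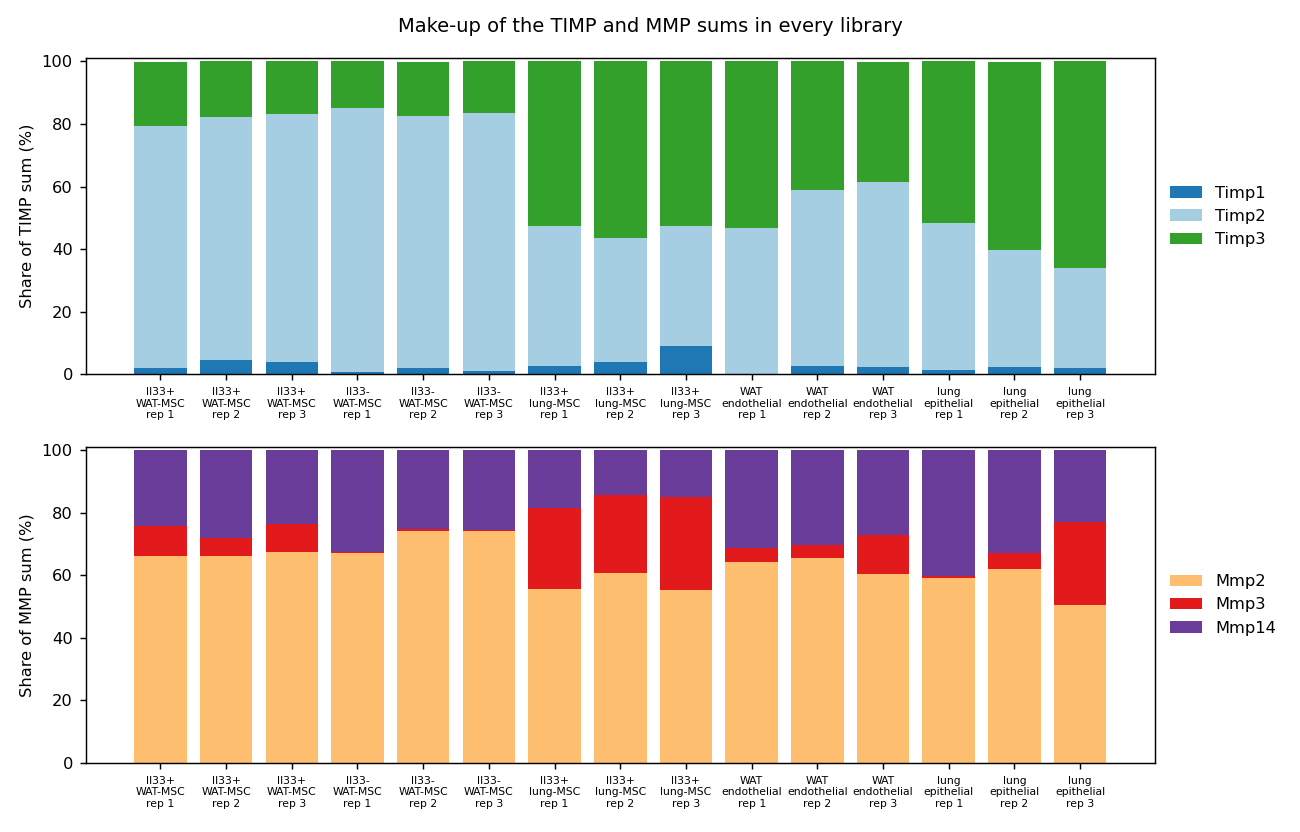
Share in percent of each TIMP in the TIMP sum (top) and of each MMP in the MMP sum (bottom), 1 bar per library. Timp2 is the major TIMP of WAT-MSC at 77.3 to 84.5% and Timp3 that of lung MSC at 52.6 to 56.4%. Mmp3 is a visible component in lung MSC at 24.9 to 29.9%, and also in lung epithelial replicate 3 at 26.6%.

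The first comparison asked how Il33+ and Il33- stromal cells of the same fat depot differ. Mmp3 was higher in Il33+ WAT-MSC by a log2 fold change of 3.09 (SE 0.39, adjusted p = 0.00382, limma), and it was 1 of 9 members past the threshold of 0.05, against 1.57% of the 8448 genes tested (0.923% higher and 0.651% lower in Il33+ cells). The median log2 difference was 0.16 over the members and -0.01 over all genes. The change was the 4th largest in size among all genes tested and was 3.02 within sequencing lane 1 and 3.24 within lane 2. It passed the threshold under all 16 alternative settings, with log2 fold changes of 2.71 to 3.79. Libraries did not overlap for 6 members, Mmp3, Mmp14, Timp1, Timp2, Timp3 and Fap, against 17.5% of all genes tested.

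The 3 inhibitors had positive differences and did not pass the test. The log2 difference of Timp1 was 1.95 (SE 0.45, adjusted p = 0.0618, limma), of Timp3 0.73 (SE 0.24, adjusted p = 0.225) and of Timp2 0.47 (SE 0.23, adjusted p = 0.472). Timp1 passed with the replicate number as a block (adjusted p = 0.00198, limma), though the labels do not say whether same-numbered libraries are paired. It also passed under median-ratio scaling (0.035), under quantile normalization (0.0394) and without Il33- replicate 2 (0.0302). Its adjusted p ran from 0.00198 to 0.236 over all alternatives. Its differences were 1.88 within lane 1 and 2.08 within lane 2. Fap had a difference of -1.10 (SE 0.29, adjusted p = 0.111), and its Il33- libraries, at 9.37 to 11.4 RPKM, were all above the Il33+ ones. Mmp2 (-0.36), Mmp14 (-0.37), Adamts1 (0.16) and Adamts5 (-0.24) differed by less than 2 standard errors, and Adamts1 was at -0.06 under quantile normalization.

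Of the related genes, those called were lower in Il33+ WAT-MSC. Plau, the urokinase that turns plasminogen into plasmin, was at 14 ± 4.68 against 63.3 ± 15.1 RPKM (log2 fold change -2.12, adjusted p = 0.00435, limma). Adam23, an ADAM without protease activity that binds integrins, was at 0.377 ± 0.225 against 8.72 ± 0.234 RPKM. It was under 1 RPKM in all Il33+ libraries and passed the filter on low values through Il33- cells alone, so its call is no support. Col4a1, a basement membrane collagen chain, was at 109 ± 8.56 against 333 ± 58.7 RPKM (-1.59, adjusted p = 0.00577). By list, 2 of 12 genes of the plasminogen system and serine proteases (Plau and the inhibitor Serpine2), 2 of 7 ADAMs (Adam23 and Adam19) and 3 of 11 matrix substrates (Col4a1, Col4a2 and Lamb1, all of basement membrane) were lower. Serpine2, Adam19, Col4a2 and Lamb1 are named after their values were seen. By limma no gene of the other MMPs (4 tested), other ADAMTS genes (11) or cathepsins and cystatins (12) passed in either direction, and 0, 4 and 1 of them had an unadjusted p under 0.05.

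Markers of other cells differed alongside. The summed RPKM of 9 mesothelial markers was 63.2 to 177 in Il33+ and 37.3 to 54.4 in Il33- WAT-MSC, with 2 of 8 tested markers higher in Il33+ cells and none of the 9 at 0 throughout a population. The part of mesothelial cells in the Mmp3 result was not tested. Macrophage and leukocyte markers summed to 10.9 to 17.9 RPKM in Il33+ and 21.0 to 47.2 in Il33- cells. The 12 early response genes, which are known to rise with tissue digestion, summed to 6286 to 10400 and 8608 to 13060 RPKM, and by limma none of them passed the test, with 2 at an unadjusted p under 0.05.

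The second comparison set Il33+ stromal cells of fat against those of lung. Mmp3, Timp1 and Timp3 were lower in WAT, so that 3 of 9 members passed the threshold, against 6.00% of 8554 genes tested in either direction (2.50% higher and 3.50% lower in WAT). The median log2 difference was -0.20 over the members and 0.03 over all genes. Timp3 had a log2 fold change of -2.68 (SE 0.20, adjusted p = 8.8e-05, limma) and Mmp3 of -2.34 (SE 0.22, adjusted p = 0.000202), and both passed under all 16 alternatives. Timp1 had -1.63 (SE 0.39, adjusted p = 0.0351) and lost the call in 7 alternatives: with the lane as a covariate (adjusted p = 0.0775), with all libraries in 1 fit (0.256), with no filter (0.0926), and without Il33+ WAT-MSC replicate 1 (0.109) or 3 (0.0712) or lung replicate 2 (0.112) or 3 (0.0941). Lanes were unevenly filled here: within lane 1, which held 2 WAT libraries and 1 lung library, the differences of Timp3, Mmp3 and Timp1 were -2.57, -2.37 and -0.99. In lane 2, with 1 WAT and 2 lung libraries, they were -2.89, -2.17 and -1.84.

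Mmp2, its activator Mmp14 and Timp2 did not pass the test between the tissues. Mmp14 had a log2 difference of 0.02 (SE 0.19, adjusted p = 0.983, limma), turning to -0.01 under median-ratio scaling and -0.02 under quantile normalization, and Timp2 had -0.20 (SE 0.20), turning to 0.05 under quantile normalization. Mmp2 was at -0.42 (SE 0.19, adjusted p = 0.281). Adamts1 (0.41), Adamts5 (0.59) and Fap (0.67) had positive differences, none past the threshold. In this comparison 5 members had libraries that did not overlap (Mmp2, Mmp3, Timp1, Timp3 and Fap), against 23.1% of all genes tested.

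Related genes changed in both directions between the tissues. Plau (14 ± 4.68 against 2.02 ± 0.915 RPKM), the membrane protease Adam12 (11.5 ± 3.35 against 2.11 ± 0.272) and Adamts16 (3.11 ± 0.632 against 0.0767 ± 0.1) were called higher in WAT. Adam23 (0.377 ± 0.225 against 14.5 ± 3.97 RPKM), the lysosomal protease Ctss (0.267 ± 0.214 against 6.67 ± 1.90) and the cysteine protease inhibitor Cst3 (178 ± 49.1 against 561 ± 138) were called lower. The adjusted p-values by limma of Plau, Adam12 and Cst3 were 0.00196, 0.00191 and 0.00428. Adamts16, Adam23 and Ctss, like Mmp27 and Adamts17 among the counts that follow, passed the filter through the higher group alone, so these calls are no support. Of 14 other ADAMTS and ADAMTS-like genes 3 were higher in WAT (Adamts12, Adamts16 and Adamtsl3) and 2 lower (Adamts17 and Adamtsl1). Of 11 matrix substrates 4 were higher (Nid1, Col4a1, Fn1 and Lamb1) and 1, the elastin gene Eln, was lower. Mmp27, lower in WAT, was the 1 of 5 other MMPs past the threshold. These genes are named to complete the counts, after their values were seen.

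Markers of other cells also moved with tissue. Macrophage and leukocyte markers summed to 156 to 186 RPKM in lung MSC, against 10.9 to 17.9 in Il33+ WAT-MSC, and mesothelial markers to 21.4 to 29.3 against 63.2 to 177. Lyz2 alone made up most of the leukocyte sum in lung MSC, at a mean of 126.5 RPKM. By limma 3 of 7 tested leukocyte markers were lower in WAT. Early response genes summed to 13500 to 15170 against 6286 to 10400 RPKM, and 3 of 12 were lower in WAT. The part of these cells and of the digestion in the levels of Mmp3, Timp1 and Timp3 was not tested.

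The next comparisons set each WAT-MSC population against WAT endothelial cells, whose depot the labels do not give, and they share the 3 endothelial libraries. In Il33+ WAT-MSC, 3 of 9 members were higher and none lower, against 3.90% of 8665 genes in either direction (0.565% higher and 3.34% lower). These were Mmp2 (log2 fold change 1.52, SE 0.25, adjusted p = 0.0101, limma), Adamts5 (1.44, SE 0.27, adjusted p = 0.0218) and Mmp14 (1.21, SE 0.24, adjusted p = 0.0299). In Il33- WAT-MSC, 4 were higher and 1 lower, against 5.69% of 8713 genes in either direction (1.60% higher and 4.10% lower). Fap (2.63, SE 0.40, adjusted p = 0.00522), Mmp2 (1.87, SE 0.31, adjusted p = 0.00745), Adamts5 (1.68, SE 0.27, adjusted p = 0.00655) and Mmp14 (1.58, SE 0.26, adjusted p = 0.00745) were higher, and Timp3 was lower (-1.53, SE 0.33, adjusted p = 0.0267). The median log2 difference was 1.44 and 0.51 over the members. Over all genes it was 0.18 and 0.17 in these comparisons and 0.03 in each under median-ratio scaling, so the member values are 0.18 and 0.17 smaller relative to it.

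The other members did not pass the test against endothelium. Differences are given as WAT-MSC minus endothelium. In Il33+ WAT-MSC, Timp2 had 0.98 (adjusted p = 0.0986, limma), Mmp3 1.63 (0.138), Fap 1.52 (0.105), Timp1 1.69 (0.27) and Timp3 -0.81 (0.246). The libraries of all 5 nevertheless did not overlap, as for 23.2% of all genes. Adamts1 was at 0.11 (SE 0.24) and -0.06 (SE 0.27) in the respective comparisons, and the first turned to -0.10 under median-ratio and -0.24 under quantile scaling. Mmp3 was at -1.46 (adjusted p = 0.256, limma) in Il33- WAT-MSC, where its mean was below that of the endothelial libraries. With 7 members not overlapping in the Il33- comparison, the share over all genes was 23.8%.

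Several of these calls were lost when 1 library was left out, in fits where fewer of all genes passed as well. Without Il33+ replicate 1, 2 or 3 or endothelial replicate 2, 131 to 163 genes passed for Il33+ WAT-MSC, against 338 with every library. Without Il33- replicate 1, 2 or 3 or endothelial replicate 2, 222 to 260 passed for Il33- WAT-MSC, against 496. For Il33+ WAT-MSC, no member passed without Il33+ replicate 1, Il33+ replicate 3 or endothelial replicate 2, Mmp14 and Adamts5 also failed without Il33+ replicate 2, and 4 members passed without endothelial replicate 3, when Mmp3 joined (log2 fold change 2.20, adjusted p = 0.0172, limma). Under median-ratio scaling only Mmp2 passed. For Il33- WAT-MSC, Fap passed under all 16 alternatives, Mmp2 and Mmp14 failed without Il33- replicate 2 or 3, Adamts5 failed without Il33- replicate 2, and Timp3 failed with no filter, without any Il33- replicate and without endothelial replicate 2. Differences kept their sign within both lanes for Mmp2 (1.59 and 1.37 in Il33+ cells), Mmp14 (1.31 and 1.00) and Adamts5 (1.56 and 1.20). In Il33- cells they were 2.93 and 2.02 for Fap and -1.70 and -1.19 for Timp3. Fap was near the filter minimum of 1 RPKM in endothelial libraries, at 0.59, 0.64 and 1.55.

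The endothelial libraries held stromal transcripts in amounts that touch these differences. As a percentage of the Il33+ WAT-MSC mean, the median of 12 stromal markers was 32.6, 36.4 and 66.9% in endothelial replicates 1, 2 and 3. Mmp2 was at 30.2, 33.5 and 40.7%, Mmp14 at 38.7, 40.9 and 48.1% and Adamts5 at 35.3, 36.8 and 32.6%. Mmp3 was at 17.2, 17.9 and 68.9%, Fap at 14.1, 13 and 34.2% and Timp2 at 52.3, 46.2 and 53.7%. Like Mmp2 and Mmp14, these were highest in replicate 3, which had the most stromal transcripts. Adamts5 was lowest there. Timp1 was at 6.1, 52.8 and 51.3%. Adamts1 was at 87.6 to 104% and Timp3 at 143 to 251%, the last highest in replicate 1, the library with 11.02% of genes at 0. Without that library the Timp3 differences were -0.54 for Il33+ and -1.27 for Il33- WAT-MSC (adjusted p = 0.338 and 0.0368, limma). The part of stromal cells in the endothelial levels was not tested. Pericyte and smooth muscle markers summed to 194 to 280 RPKM in endothelial libraries and 14.4 to 23.7 in Il33+ WAT-MSC, and mesothelial markers to 58.7 to 264 against 63.2 to 177. The part of these cells in Timp3 and Mmp3 was not tested.

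**Figure D4:**
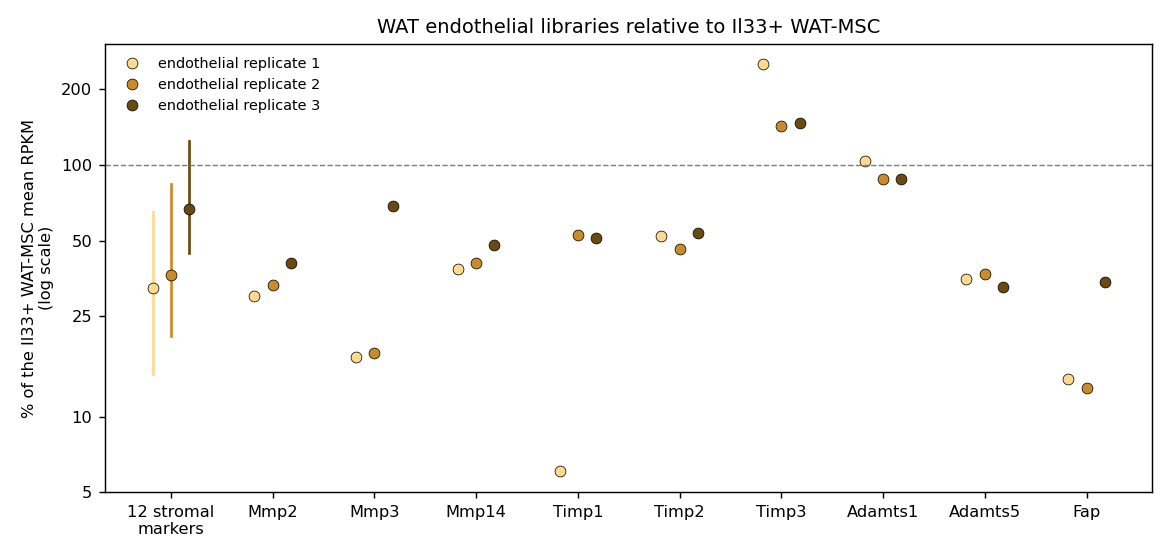
Level in each WAT endothelial library as a percentage of the Il33+ WAT-MSC mean RPKM, on a log axis, for the median of 12 stromal markers (bars: lowest to highest marker) and for each member. Mmp2, Mmp14 and Adamts5 lie at 30.2 to 48.1%, Adamts1 near 100% and Timp3 at 143 to 251%.

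Among the related genes, Timp4, the remaining inhibitor of the family, was at 12.9, 1.41 and 11.1 RPKM in endothelial libraries and at no more than 0.06 in any WAT-MSC library. It passed the filter through the endothelial libraries alone, so its call in both comparisons is no support. Vcan (versican, a substrate of Adamts1 and Adamts5) was at 87.5 ± 21.4 against 33.5 ± 6.08 RPKM and Nid1 (nidogen) at 715 ± 117 against 282 ± 28.6, both higher in Il33+ WAT-MSC (adjusted p = 0.0375 and 0.0331, limma). Il33- WAT-MSC exceeded endothelial cells in Plau (63.3 ± 15.1 against 8.87 ± 2.34 RPKM), Adam23 (8.72 ± 0.234 against 0.57 ± 0.430) and Adam12 (33.1 ± 15.8 against 4.69 ± 2.91). Adam23 was near the filter minimum of 1 RPKM in endothelial libraries, at 0.15, 0.55 and 1.01. Plaur, the receptor of urokinase, was lower in Il33- WAT-MSC, at 1.88 ± 1.13 against 11.3 ± 2.73 RPKM (adjusted p = 0.0196, limma). By limma no gene of the other MMPs (4 tested) passed in either comparison, with 1 and 2 at an unadjusted p under 0.05. Of the other ADAMTS genes none of 12 passed for Il33+ WAT-MSC (6 at an unadjusted p under 0.05), and 4 of 11 were higher in Il33- WAT-MSC, namely Adamts12, Adamts14, Adamts15 and Adamtsl3, named after their values were seen. Adamts14 and Adamts15 were under 1 RPKM in all endothelial libraries, so 2 of these 4 calls are no support.

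The last comparison was between stromal and epithelial cells of lung. All 9 members were higher in Il33+ lung MSC, against 43.0% of 9352 genes called in either direction (24.4% higher and 18.5% lower), and all 9 passed under all 16 alternatives. Log2 fold changes ran from 1.62 for Fap (SE 0.25, adjusted p = 0.000564, limma) and 2.71 for Adamts5 (SE 0.28) to 5.11 for Timp1 (SE 0.37) and 5.67 for Mmp3 (SE 0.54, adjusted p = 2.99e-05). Mmp2 was at 4.76 (SE 0.23), Timp2 at 4.47 (SE 0.20), Timp3 at 4.26 (SE 0.25), Mmp14 at 3.67 (SE 0.24) and Adamts1 at 3.57 (SE 0.25). Libraries of all 9 did not overlap, as for 53.4% of all genes. Fap was at no more than 0.30 RPKM in epithelial libraries and passed the filter on low values through lung MSC alone, so its call is no support. Differences were 1.62 to 6.56 within lane 1 and 1.61 to 5.27 within lane 2.

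Epithelial levels of the members, as a percentage of the lung MSC mean, were set beside those of the stromal list. The median of 12 stromal markers was 2.03 to 3.41% in epithelial libraries. Adamts5 was at 9.33 to 14.9%, Adamts1 at 6.4 to 9.13%, Mmp14 at 4.77 to 7.84% and Timp2 at 4.19 to 4.52%, and these and Timp3, at 3.76 to 6.56%, were above the list's median in each library. Timp1 was below that median, at 1.13 to 2.26%. Mmp2 (2.52 to 4.17%), Mmp3 (0.10 to 4.72%) and Fap (0.41 to 12.4%) were above it in some libraries and below it in others. The 12 early response genes were all higher in lung MSC, with sums of 13500 to 15170 RPKM against 1538 to 2797. The part of stromal cells and of the digestion in these levels was not tested. The median log2 difference was 4.26 over the members; over all genes it was 0.13 and became -0.06 under median-ratio scaling, in a comparison where Scgb1a1 alone took 57.7 to 62.9% of the epithelial RPKM.

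A few other proteases were higher in the lung epithelium, while most of those called were higher in lung MSC, like the members. In lung MSC 3 of 5 other MMPs were higher and 1 lower, and 6 of 9 ADAMs higher and 2 lower. Of 12 genes of the plasminogen system and serine proteases 6 were higher and 2 lower. Of 13 cathepsins and cystatins 10 were higher and 1 lower. Among the higher ones, 1 MMP and 1 gene of the cathepsin list passed the filter through lung MSC alone. Mmp15, a membrane metalloproteinase, was at 15.1 ± 6.51 RPKM in epithelial cells and 0.517 ± 0.237 in lung MSC, Adam8 at 11.1 ± 2.32 against 0.827 ± 0.668 and Adam28 at 7.37 ± 1.40 against 0.37 ± 0.289 (adjusted p of Adam8 0.000106, limma). Mmp15 and Adam28 were under 1 RPKM in all lung MSC libraries and passed the filter through the epithelium alone, so their calls are no support. Adam8 came close to this, at 0.35, 0.54 and 1.59 RPKM in lung MSC libraries. Macrophage and leukocyte markers summed to 731 to 1374 RPKM in epithelial libraries against 156 to 186 in lung MSC, in cells sorted as CD45-. Lyz2 alone made up most of both sums, with means of 1006 and 126.5 RPKM. By limma 2 of 8 tested markers of this list were lower in lung MSC and 0 higher. The part of such cells in Adam8 and Adam28 was not tested. Stromal cells led in Col1a1 (2149 ± 494 against 29.2 ± 15.3 RPKM), Col1a2 (1849 ± 266 against 31.5 ± 9.60) and Serpinf1 (609 ± 40.1 against 7.63 ± 2.10), a secreted serpin. All 11 matrix substrates, 10 of 12 other ADAMTS and ADAMTS-like genes (4 of the 10 through lung MSC alone) and 3 of 3 tested procollagen processing genes were higher in lung MSC.

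**Figure D5:**
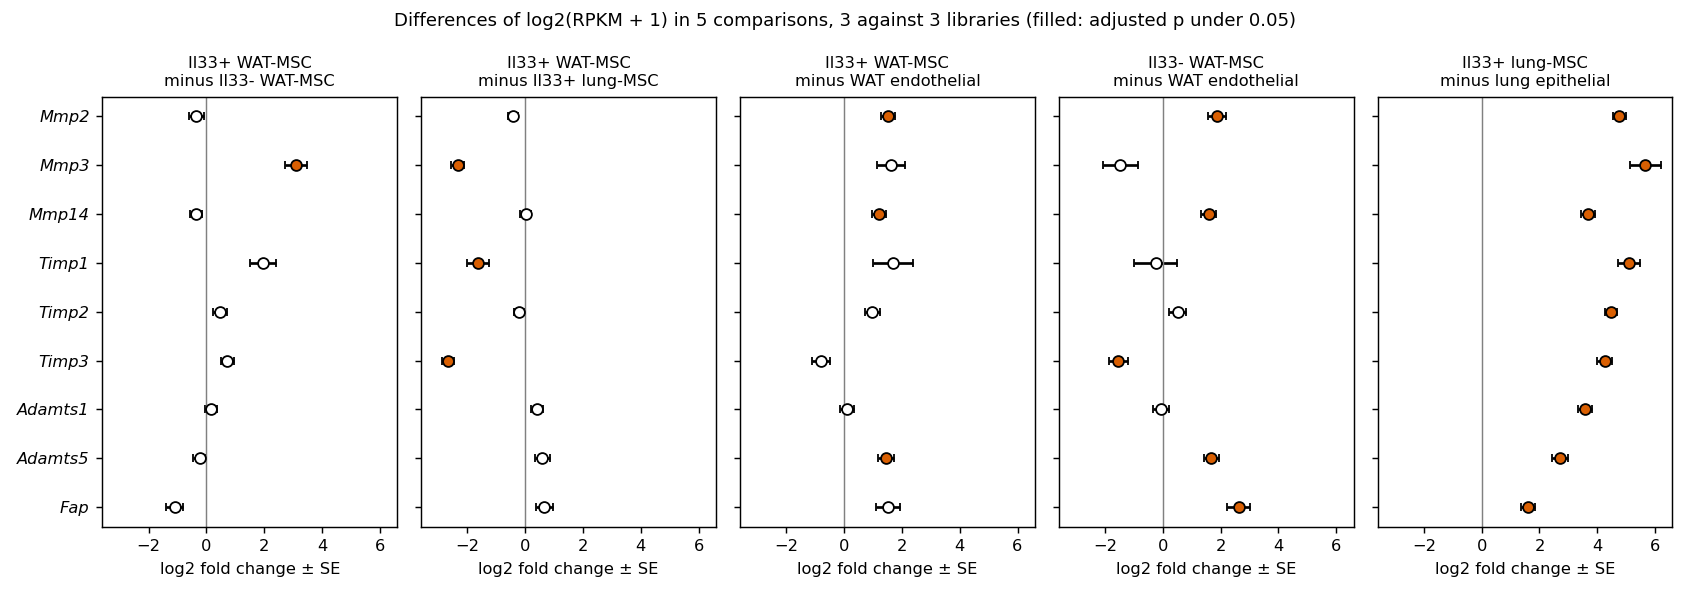
Log2 fold change with its SE for the 9 genes in 5 comparisons of 3 against 3 libraries; filled points have an adjusted p under 0.05 by limma. Mmp3 is filled at 3.09 in the first panel, Timp3, Mmp3 and Timp1 at -2.68, -2.34 and -1.63 in the second, and all 9 genes in the last.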

How the data were processed

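Reads from 15 libraries (5 populations, 3 each; Ovation RNA-seq System V2) were aligned by the authors with TopHat2 in Partek Flow to mm10, per the labels, and analysed in Partek Genomics Suite 6.16. The authors deposited RPKM for 12698 RefSeq transcripts; how reads were divided among transcripts, and whether strand was used, is not given in the sources used here. RPKM was summed per symbol. The read counts behind each value are unknown, so no counting interval is given. Comparisons of 3 against 3 libraries were fitted across all genes with limma 3.58.1 (R 4.3.3; lmFit, eBayes with a trend, two-sided) on log2(RPKM + 1). Genes entered if 3 or more of the 6 libraries reached 1 RPKM. P-values were adjusted by Benjamini-Hochberg over all genes tested and called under 0.05. A fold change on this scale understates the change of low genes. An exact permutation test of 3 against 3 cannot go below p = 0.1. The fit was tested on simulated data. Python 3.11.15 with pandas 2.3.3 was used for the rest.

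Groups and replicate numbers came from the sample labels, and sequencing lanes (8 libraries in lane 1, 7 in lane 2) from the library names. Promoter sequences and coordinates came from RefSeq, GRCm38.p6. The members and gene lists were chosen with earlier results of these data known. Named genes were all members, in each comparison up to 3 related genes in each direction with the largest fold change past the threshold, and for each member the 3 genes most correlated with it, of which 1 is not reported here; genes of the marker lists were given as counts and sums, with Il33, Pdgfra, Pecam1, Epcam and Scgb1a1 as checks of the labels, the last chosen after its values were seen; a few more genes complete small counts and are marked so. Lyz2 and Mmp19 were also named after their values were seen. Same-numbered libraries did not deviate together (correlations of -0.07 to 0.15).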

Additional observations from a re-analysis of the deposited data

How the results depend on the processing

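Each comparison was refitted under 16 alternatives. Of 720 refitted member differences, 666 kept their direction and their side of the threshold, 31 lost and 8 gained a call, and 15 changed sign, none of a called gene. The labels do not say whether same-numbered libraries are paired. The replicate block gave 232 genes and 2 members in Il33+ against Il33- WAT-MSC (133 and 1 without it), where Timp1 passed (adjusted p = 0.00198, limma). It also ended the call of Mmp14 in Il33+ WAT-MSC against endothelium (adjusted p = 0.0553). Median-ratio scaling and quantile normalization also gave 2 members in Il33+ against Il33- WAT-MSC, and no filter gave 45 genes in that comparison. With all libraries in 1 fit, 336 genes passed for Il33+ WAT-MSC against lung MSC (513), 805 genes (338) and 5 members (3) against endothelium, and 1030 (496) for Il33- WAT-MSC against endothelium. Median-ratio scaling left 1 member for Il33+ WAT-MSC against endothelium. Leaving out 1 library gave 1 to 2 members and 55 to 122 genes in Il33+ against Il33- WAT-MSC, 2 to 3 and 261 to 502 against lung MSC, 0 to 4 and 131 to 447 against endothelium, 1 to 5 and 222 to 654 for Il33- WAT-MSC against endothelium, and 9 and 3302 to 4165 in lung. The signs that changed were those of Adamts1 in Il33+ against Il33- WAT-MSC (-0.060, quantile), of Mmp14 against lung MSC (-0.043 with the lane, -0.0085 and -0.020 under median-ratio and quantile scaling, and -0.10 to 0.12 without 1 library, below 0 without Il33+ WAT-MSC replicate 2 or lung replicate 3), of Timp2 against lung MSC (0.050, quantile), of Adamts1 in Il33+ WAT-MSC against endothelium (-0.10 and -0.24, median-ratio and quantile), and, for Il33- WAT-MSC against endothelium, of Timp1 (-1.12 to 0.22 without 1 library, above 0 without Il33- replicate 1 or endothelial replicate 2 or 3), Timp2 (-0.13, quantile) and Adamts1 (-0.12 to 0.068 without 1 library, above 0 without Il33- replicate 1 or endothelial replicate 1). The count of genes fell by a factor above 1.5 in Il33+ against Il33- WAT-MSC without Il33+ replicate 1, 2 or 3 (56, 82 and 69) or Il33- replicate 2 or 3 (64 and 55), against lung MSC without lung replicate 2 (261), against endothelium without Il33+ replicate 1, 2 or 3 (131, 163 and 151) or endothelial replicate 2 (150), and for Il33- WAT-MSC against endothelium without Il33- replicate 1, 2 or 3 (255, 222 and 234) or endothelial replicate 2 (260). Such a fit has fewer samples; no other cause was tested.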
